A study of Saccharomyces cerevisiae with 4 samples.

Results

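Null cells of the yeast Saccharomyces cerevisiae in low copper were set against wild type on 2 two-colour spotted arrays, chosen by sample titles that name low Cu. They are 2 of the 4 arrays of the series. The other 2 held null cells in high copper and are used here for the spread between arrays and for comparison. On every array, total RNA of lpz8 null cells carried the Cy5 dye and total RNA of wild-type cells carried the Cy3 dye. The series title names Haa1, and lpz8 is read as HAA1 from that title and from the HAA1 spot. The copper content of the wild-type cultures, the copper concentrations, the strain background and the way the null was made are not stated in the labels. No array exchanged the dyes, so a dye effect and the genotype cannot be told apart for a single gene. Replicate 2 in low copper and replicate 1 in high copper are the arrays marked as repeats, and the labels do not say whether the arrays of a condition came from separate cultures. The p-values therefore measure how far these arrays scatter, and that scatter may be technical.

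HAA1 encodes a transcription factor whose DNA-binding region resembles that of the copper-responsive activators Ace1 and Mac1. Ace1 switches on metallothionein genes when copper is abundant, and Mac1 switches on copper uptake genes when copper is scarce. Haa1 is known for the response of yeast to weak acids, in which it activates genes for plasma membrane transporters, wall proteins and metabolic enzymes.

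Each value below is read as the log2 ratio of null to wild type on an array centred on its median. A negative value then means less of that transcript in the null RNA relative to the array's median gene. Of 5574 named genes, 5154 had values on the same spots of both low copper arrays. Another 397 were measured on replicate 2 alone and 15 on replicate 1 alone. The statistical test was limma's moderated test of the low copper mean against 0, on the 5137 genes measured on all 4 arrays, with Benjamini-Hochberg adjustment and a threshold of 0.05. By this test 22 genes (0.428% of those tested) were lower and 12 (0.234%) were higher in null cells. Without centring, 17 were lower and 2 higher, and with the arrays scaled to equal spread, 30 were lower and 31 higher. The calls rest on the spread of all 4 arrays, since limma called 0 genes on the low copper pair alone (942 at an unadjusted p under 0.05) and 0 when either high copper array was left out, against 101 without low copper replicate 1 and 1438 without low copper replicate 2. With the arrays marked as repeats entered as a replicate block, limma also called 0 (1520 at an unadjusted p under 0.05), so every call below is lost under that block. Of the 34 genes, 19 kept their call without centring and 20 kept it with scaled arrays. YRO2, GRE1, URA1, INO1, RIB4, RIE1, HXT1, YEL075C, PHO11, TIP1, HXT2 and VTC1 were among those lost with scaled arrays (adjusted p between 0.0514 and 0.0638). NQM1, CAR1, ROG3, YEL075C, YGL039W, MET17, PHO5, PHO11, TIP1, HXT2, VTC1, ZRT1 and SPL2 were among those lost without centring (adjusted p between 0.0516 and 0.0762). A separate count without a test took genes at least 2-fold from the median and of one sign on both low copper arrays, which gave 34 lower (0.66% of 5154) and 20 higher (0.388%). Of the 34 genes that passed limma, 26 were also at least 2-fold on both arrays. Over the 5154 genes, 36.5% were below 0 and 35.8% above 0 on both low copper arrays, the shares beside which list counts stand. In bulk RNA, fewer cells of a type and less RNA per cell cannot be told apart.

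The low copper arrays differed in quality, which bears on every value given for replicate 1. Values were missing for 17.9% of spots on replicate 1 and 5.42% on replicate 2. Over the 6912 spots measured on all 4 arrays, the SD of the log2 ratios was 0.720 on replicate 1 and 0.459 on replicate 2, while the high copper arrays had 0.442 and 0.470. Replicate 1 held 76 spots below -3, against 27 on replicate 2. On high copper replicate 1, a run of 528 spots held values that followed the mean of the other arrays only when moved 24 spots on. The Spearman correlation with that mean was 0.617 there and -0.058 at the same spot. That run touched 351 of the genes tested and none of the 34 that passed, and moving it back raised the count to 63 genes, 33 lower and 30 higher, with all 34 kept.

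Genes known as Haa1 targets gave the clearest picture in low copper. YRO2, TPO2, TDA6, YGP1, YLR297W and GRE1 fell in null cells, which is 6 of the 15 listed targets. None of the 15 passed as higher. Of all genes tested, 0.428% passed as lower and 0.234% as higher. The list comes from what is known of this factor, which includes work on cells that lack it, so it is not independent evidence of direction. HAA1 itself stood at -7.35 on replicate 2 and had no value on replicate 1, so it was not tested. In high copper its values were -6.96 and -4.15. No fold is given for HAA1, since its null channel may lie at background and channel intensities were not used here.

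YRO2 encodes a plasma membrane protein related to the heat shock protein Hsp30. Its log2 ratios were -3.11 and -3.58 in low copper, against -2.88 and -2.28 in high copper. Both low copper values lay below both high copper values. The low copper mean was -3.35 ± 0.33 (SD, n = 2), a 10.2-fold lower level (adjusted p = 0.0211, limma).

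TPO2 encodes a polyamine exporter of the plasma membrane. It stood at -3.25 and -2.79 in low copper and at -3.55 and -3.40 in high copper, so that the values of the conditions lay close without overlapping. The low copper mean was -3.02 ± 0.32 (SD, n = 2), an 8.1-fold lower level (adjusted p = 0.0136, limma). Its paralog TPO3, which encodes a transporter of the same kind, stood at -1.66 and -1.44 and did not pass (adjusted p = 0.127). One of its high copper values lies in the displaced run, and with the run moved back TPO3 passed (adjusted p = 0.0144).

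TDA6 encodes a protein of unknown biochemical function. Its values were -3.14 and -2.54 in low copper, against -3.98 and -3.85 in high copper, all far below 0 (low copper adjusted p = 0.0211, limma). YGP1, the gene of a secreted wall-related glycoprotein made under starvation and stress, differed little between arrays and conditions. It stood at -2.14 and -1.99 in low copper and at -2.12 and -2.12 in high copper, a 4.18-fold lower level in low copper (adjusted p = 0.0123, limma).

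YLR297W, which encodes a vacuolar protein of unknown function, had -1.66 and -1.64 in low copper, against -2.39 and -2.60 in high copper. GRE1, a stress-induced hydrophilin gene, had -1.30 and -1.33 in low copper, against -1.76 and -1.51 in high copper. Both genes were below 0 on all 4 arrays, and both passed in low copper (limma adjusted p = 0.0211 for YLR297W and 0.0322 for GRE1).

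The 9 other listed targets did not pass. PHM8, a lysophosphatidic acid phosphatase gene, was as low as several that did, at -2.77 and -2.50 (adjusted p = 0.0916). COM2, which encodes a transcription factor, stood at -1.37 and -1.23 (adjusted p = 0.121). PHM8 and COM2 also lie in the displaced run, and both passed with it moved back (adjusted p = 0.00792 and 0.027). SUR2, GPG1, SPI1, HRK1 and INM1 lay between -0.58 and -0.15 on both arrays. HSP26, a small heat shock protein gene, was the single member without one sign, at -0.20 and 0.65. Over the 15 targets, 14 were below 0 on both arrays, where 36.5% of all measured genes were, and 0 were above 0 on both, where 35.8% of all genes were. The list median was -1.37 on replicate 1 and -1.33 on replicate 2, beside -0.003 and -0.002 over all genes.

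**Figure D1:**
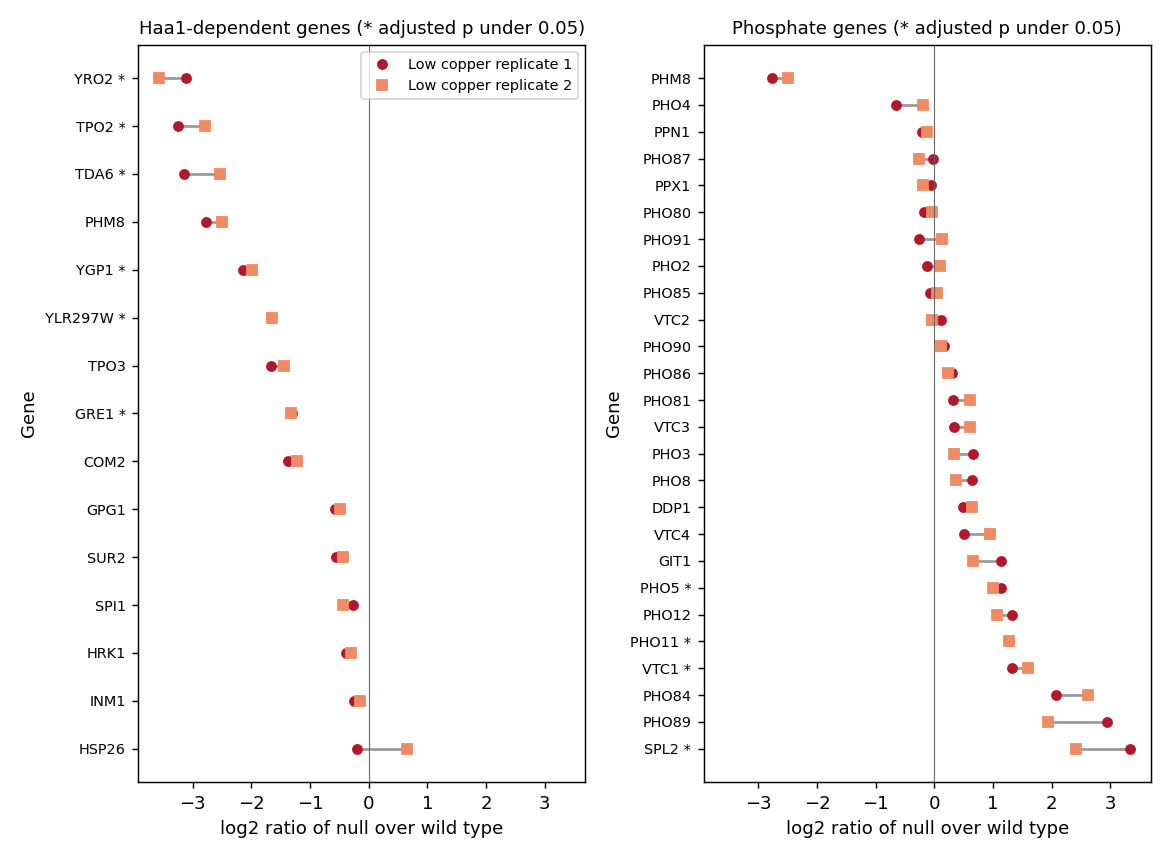
Log2 ratios of null over wild type (horizontal axis) for the Haa1-dependent genes and the phosphate genes (vertical axis), with a point for each low copper array. Most Haa1-dependent genes lie left of 0 on both low copper arrays. SPL2, PHO84, PHO89, PHO5 and PHO11 lie right of 0 on both, with SPL2 at 3.34 and 2.41.

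HSP30, a stress-induced regulator of the plasma membrane proton pump and a relative of YRO2, fell too. Its values were -1.70 and -1.66 in low copper, against -0.66 and -0.74 in high copper, a 3.2-fold lower level in low copper (adjusted p = 0.0136, limma). The low copper values lay wholly below the high copper ones, and the difference between conditions did not pass (adjusted p = 0.224). MRH1, the remaining relative, stood at -0.71 and -0.80 (adjusted p = 0.0585), and it passed with the displaced run moved back (adjusted p = 0.0444). PMA1, the proton pump itself, stood at -0.37 and -0.32 (adjusted p = 0.0916). In the list of 10 genes of the proton pump and its regulators, 8 were below 0 on both arrays, beside 36.5% of all genes, and the list median was -0.55 on replicate 1 and -0.31 on replicate 2. The 2 that passed were HSP30 and YRO2, and YRO2 is also counted in the Haa1 list, as is HRK1. Of all genes tested, 0.428% passed as lower.

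Several of the lowest genes outside these lists have no assigned or a poorly known function. NRE1, which encodes a short-chain dehydrogenase-like protein, had -2.19 and -2.09 in low copper, against -1.87 and -1.86 in high copper. YDR222W, an uncharacterised gene, had -2.15 and -2.04 in low copper, against -1.43 and -1.56 in high copper. YMR317W, also uncharacterised, had -1.54 and -1.49 in low copper, against -0.90 and -0.70 in high copper. All 3 were lower in null cells by limma (adjusted p = 0.0123, 0.0123 and 0.0211). The test favours genes whose arrays lie close, so a small spread between the low copper arrays is no further evidence for these 3.

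RPL31B was among the lowest genes in low copper and lay near 0 in high copper. It encodes one of the paralogous forms of a large-subunit ribosomal protein. Its values were -2.87 and -2.63 in low copper, against 0.03 and 0.17 in high copper. The low copper mean was 6.74-fold lower (adjusted p = 0.0123, limma). The high minus low difference was 2.86 (adjusted p = 0.0564), which missed the threshold, and with the displaced run moved back it passed (adjusted p = 0.0443). Its paralog RPL31A stood at 0.18 and 0.47 in low copper, against 0.23 and 0.10 in high copper (low copper adjusted p = 0.137). The paralogs have similar coding sequences, so their spots may share signal.

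No gene passed the limma test of high minus low copper (0% of 5137, with 792 genes at an unadjusted p under 0.05), so none of the values above is called particular to low copper. Of the 34 genes that passed in low copper, 32 had both high copper values of the same sign, and RPL31B and YEL075C were the exceptions. The same share over all genes tested was not computed. The high copper arrays share the dye orientation and entered the fit, so the count is not separate support. YEL075C, a subtelomeric open reading frame, stood at 0.88 and 0.99 in low copper, against -0.04 and -0.15 in high copper (adjusted p = 0.0417 in low copper and 0.224 for the difference).

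**Figure D2:**
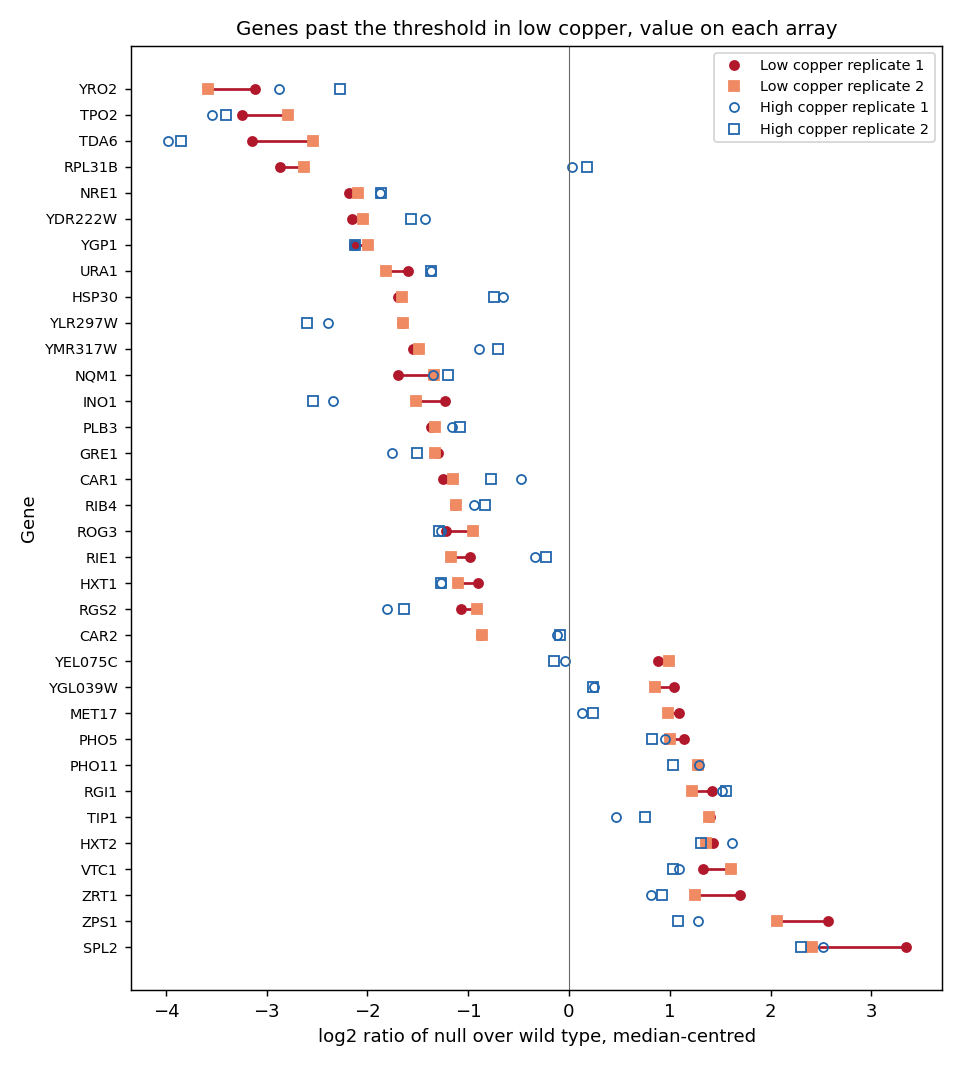
Log2 ratios of null over wild type (horizontal axis) on each low copper and high copper array for the genes that passed limma in low copper (vertical axis). The low copper points of each gene lie on one side of 0, and only RPL31B and YEL075C have a high copper point on the other side.

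Several genes of phosphate acquisition stood on the opposite side. In yeast the regulator Pho4 switches on phosphate transporters, secreted acid phosphatases and polyphosphate synthesis when phosphate is scarce. SPL2, which encodes an inhibitor of low-affinity phosphate uptake, was the highest gene that passed. Its log2 ratios were 3.34 and 2.41 in low copper, against 2.52 and 2.30 in high copper. The ranges of the conditions overlapped, and the low copper mean was 2.88 ± 0.66 (SD, n = 2), a 7.35-fold higher level (adjusted p = 0.0406, limma).

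The high-affinity transporter genes came next in size and missed the threshold, and both passed with the displaced run moved back (adjusted p = 0.0422 for PHO84 and 0.0491 for PHO89). PHO84, the high-affinity phosphate transporter gene, stood at 2.08 and 2.62 in low copper, against 2.27 and 1.54 in high copper (adjusted p = 0.0568, limma). PHO89, the gene of the sodium-coupled transporter, stood at 2.95 and 1.95 in low copper, against 2.35 and 1.91 in high copper (adjusted p = 0.0618). GIT1, which encodes a glycerophosphoinositol transporter, stood at 1.13 and 0.66, and it passed with scaled arrays (adjusted p = 0.0494), as PHO89 did (adjusted p = 0.037). The low-affinity transporter genes PHO87, PHO90 and PHO91 lay between -0.26 and 0.16 on both arrays, so the large values were those of SPL2, the high-affinity transporters and GIT1. Of the 7 transport genes, 5 were above 0 on both arrays, 3 were at least 2-fold higher on both and 1 passed. Over all measured genes, 35.8% were above 0 and 0.388% at least 2-fold higher on both. Of all genes tested, 0.234% passed as higher. The genes of the regulators themselves lay on both sides of 0. PHO4 had -0.65 and -0.19 (adjusted p = 0.152, limma), and PHO81, which encodes an inhibitor of the kinase that holds Pho4 inactive, had 0.32 and 0.60 (adjusted p = 0.0916). Of the 6 regulator genes, 2 were above 0 and 2 below 0 on both arrays (33.3% each), near the 35.8% and 36.5% of all genes. Their medians were -0.10 and 0.08, and none passed.

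The acid phosphatase genes PHO5 and PHO11 rose, by less than SPL2. PHO5, the main secreted acid phosphatase gene, had 1.14 and 1.01 in low copper, against 0.95 and 0.82 in high copper (low copper adjusted p = 0.0374, limma). PHO11, a second secreted form, had 1.27 and 1.28 in low copper, against 1.29 and 1.04 in high copper (adjusted p = 0.0335). PHO12, nearly identical to PHO11 in sequence, had 1.33 and 1.07 and missed the threshold (adjusted p = 0.0625), and the spots of PHO5, PHO11 and PHO12 may share signal. All 6 phosphatase genes with values were above 0 on both arrays and 2 of the 5 tested passed, beside 0.234% of all genes tested.

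The polyphosphate genes lay on both sides of 0. VTC1, a subunit gene of the vacuolar polyphosphate polymerase, rose, with 1.33 and 1.60 in low copper, against 1.09 and 1.03 in high copper (adjusted p = 0.0286, limma). VTC4, the catalytic subunit gene, had 0.51 and 0.95, and VTC3 had 0.33 and 0.61. The polyphosphatase genes PPN1 and PPX1 lay between -0.20 and -0.06 on both arrays. Of the 7 members with both values, 3 were above 0 on both arrays and 3 were below, among them PHM8 of the Haa1 list. Over all measured genes, 35.8% were above 0 and 36.5% below 0 on both. VTC1 alone passed, beside 0.234% of all genes tested that passed as higher.

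Among metal genes, calls were made on the zinc list, and the zinc, copper and iron lists were not tested against each other. ZPS1, which encodes a wall-associated protein induced in zinc deficiency, rose to 2.57 and 2.06 in low copper, against 1.28 and 1.08 in high copper (adjusted p = 0.0283, limma). ZRT1, the high-affinity zinc transporter gene, had 1.70 and 1.25 in low copper, against 0.81 and 0.93 in high copper (adjusted p = 0.0459). For both genes every low copper value lay above every high copper value, and the differences between conditions did not pass (adjusted p = 0.256 for ZPS1 and 0.295 for ZRT1). Of 13 zinc genes, 7 were above 0 on both arrays, beside 35.8% of all genes, 1 was below, and the list median was 0.49 on replicate 1 and 0.10 on replicate 2. ZAP1, the zinc-responsive activator gene, had 0.99 and -0.19, so its arrays did not share a sign. The lowest mean on the list was that of ZRG17, which encodes a zinc transporter subunit of the secretory pathway and had -3.19 on replicate 1 and 0.04 on replicate 2.

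Copper genes had small ratios in low copper. The metallothionein genes CUP1-1 and CUP1-2, near-identical copies whose spots share signal, stood at 0.65 and 0.59 and at 0.68 and 0.55 (adjusted p = 0.063 for CUP1-1, limma). SOD1, the copper-zinc superoxide dismutase gene, stood at 0.32 and 0.60. CRS5, a further metallothionein gene, stood at -0.38 and -0.24 in low copper, against 0.36 and 0.20 in high copper. None of the 4 Ace1 targets passed, and 3 of them were above 0 on both arrays, beside 35.8% of all genes.

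Among the Mac1 targets, CTR1, the high-affinity copper transporter gene, had 0.39 and 0.24 in low copper, against -0.17 and -0.20 in high copper. CTR3, the other high-affinity transporter gene, had -1.54 and -0.01, values that did not match between arrays. FRE1, REE1 and IRC7 lay within 0.50 of 0 on both arrays. None of the 5 tested passed. On both arrays 3 were above 0 and 2 below 0, beside 35.8% and 36.5% of all genes. The genes of the related factors lay near 0, with 0.34 and 0.12 for CUP2, which encodes Ace1, and -0.01 and -0.14 for MAC1.

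Of 21 iron uptake genes, 8 were above 0 and 8 below 0 on both arrays (38.1% each), near the 35.8% and 36.5% of all genes. None passed the threshold, where 0.428% of all genes tested passed as lower and 0.234% as higher. ARN1, a siderophore transporter gene, was the single member at least 2-fold from the median on both arrays. It had -1.17 and -1.02 in low copper, against 1.01 and 0.46 in high copper, opposite signs whose difference did not pass (adjusted p = 0.224, limma).

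Hexose transporter genes lay on both sides of 0. HXT1, a low-affinity glucose transporter gene, fell, with -0.90 and -1.11 in low copper, against -1.27 and -1.27 in high copper (adjusted p = 0.0417, limma). HXT2, a high-affinity transporter gene, rose, with 1.43 and 1.36 in low copper, against 1.62 and 1.31 in high copper (adjusted p = 0.0335). HXT6 and HXT7, high-affinity forms of nearly one sequence, had 0.91 and 1.20 and 0.89 and 1.15. Of 12 genes on the hexose list, 5 (41.7%) were below 0 and 4 (33.3%) above 0 on both arrays. These shares lie near the 36.5% and 35.8% of all measured genes. Another list holds 11 genes of the Snf1 kinase, the glucose-regulated kinase of yeast. Of these, 7 (63.6%) were below 0 and 2 (18.2%) above 0 on both arrays, and none passed. TOS3, which encodes a kinase that activates Snf1, was the lowest of them at -1.91 and -1.07 (adjusted p = 0.0647, and 0.037 with scaled arrays).

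Metabolic genes past the threshold came from several pathways. URA1, the dihydroorotate dehydrogenase gene of pyrimidine synthesis, had -1.60 and -1.82 in low copper, against -1.37 and -1.37 in high copper (adjusted p = 0.0211, limma). URA4 of the same pathway had -0.88 and -1.30. URA3, the orotidine phosphate decarboxylase gene often used as a strain marker, had 2.98 and 1.83 in low copper, against 0.18 and 2.28 in high copper, where the value of 0.18 lies in the displaced run (low copper adjusted p = 0.102). Whether the strains compared differ at URA3 is not stated in the labels.

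INO1, the inositol phosphate synthase gene, fell, with -1.23 and -1.51 in low copper, against -2.34 and -2.54 in high copper (adjusted p = 0.0393, limma). The inositol transporter genes ITR1 and ITR2 had -0.36 and -0.37 and -0.30 and -0.57. INO2, which encodes the activator of INO1, had 0.69 and 0.52, so the activator and its target lay on opposite sides of 0. Of 11 genes of inositol and phospholipid synthesis, 7 were below 0 and 4 above 0 on both arrays, and INO1 alone passed. Over all measured genes, 36.5% were below 0 and 35.8% above 0 on both.

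RIB4, a riboflavin synthesis gene, fell by 1.13 on the log2 scale, PLB3, a phospholipase B gene, by 1.35, and NQM1, a transaldolase paralog gene, by 1.52 (adjusted p = 0.0286, 0.0211 and 0.0371, limma). ROG3, an arrestin-related adaptor gene, RGS2, a regulator of glucose signalling through a G protein, and RIE1, an RNA-binding protein gene, also fell. ROG3 had -1.22 and -0.95, RIE1 had -0.98 and -1.17, and RGS2 had -1.07 and -0.91 (adjusted p = 0.0445, 0.0406 and 0.0486). Each of these 6 genes was also below 0 on both high copper arrays.

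CAR1 and CAR2, genes of arginine breakdown, fell as well, by 1.20 and 0.87 on the log2 scale (adjusted p = 0.0417 and 0.0406, limma). The other 4 genes past the threshold were higher. TIP1, the gene of a cold- and stress-induced wall mannoprotein, had 1.40 and 1.39 in low copper, against 0.47 and 0.76 in high copper (adjusted p = 0.0322, limma). RGI1, a gene of energy metabolism under respiratory conditions, had 1.42 and 1.22 in low copper, against 1.51 and 1.55 in high copper (adjusted p = 0.0286). MET17, which encodes O-acetylhomoserine sulfhydrylase of sulfur amino acid synthesis, had 1.09 and 0.98 in low copper, against 0.13 and 0.24 in high copper (adjusted p = 0.0371). MET17 is also a strain marker in yeast, and the genotypes of the strains at it are not stated. YGL039W, an aldehyde reductase gene, had 1.05 and 0.86 in low copper, against 0.25 and 0.24 in high copper (adjusted p = 0.0445).

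Of 28 genes of wall proteins and wall-building enzymes, 18 were above 0 on both arrays, beside 35.8% of all genes, 1 was below and TIP1 alone passed, and the list median was 0.48 on replicate 1 and 0.20 on replicate 2. CWP1, a mannoprotein gene, had 1.36 and 1.31 in low copper (adjusted p = 0.0837, limma). One of its high copper values lies in the displaced run, and with the run moved back CWP1 passed (adjusted p = 0.0235). HSP150 had 1.06 and 0.78 and CCW12 had 1.12 and 0.77, both genes of abundant wall glycoproteins, and both passed with scaled arrays (adjusted p = 0.0429 and 0.037). The PAU, DAN and TIR genes encode anaerobic and stress-related mannoproteins of closely similar sequence. Of 16 members, 9 were below 0 and 6 above 0 on both arrays, beside 36.5% and 35.8% of all genes, and none passed.

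Genes of translation and respiration had small ratios that were mostly of one sign within a list. Over all measured genes, 35.8% were above 0 and 36.5% below 0 on both arrays. Of 132 cytosolic ribosomal protein genes, 116 (87.9%) were above 0 on both arrays and 2 were below. The list median was 0.42 on replicate 1 and 0.26 on replicate 2, and RPL31B, which fell, was the single member past the threshold. Mitochondrial ribosomal protein genes were above 0 on both arrays in 56 of 66 cases, with medians of 0.34 and 0.27. Genes of the respiratory chain and ATP synthase were above 0 on both arrays in 33 of 38 cases, with medians of 0.30 and 0.30. Ribosome biogenesis genes lay the other way, with 34 of 51 below 0 and 2 above 0 on both arrays and medians of -0.27 and -0.15. No member of the last 3 lists passed, and many ribosomal protein genes have near-identical copies whose spots share signal.

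**Figure D3:**
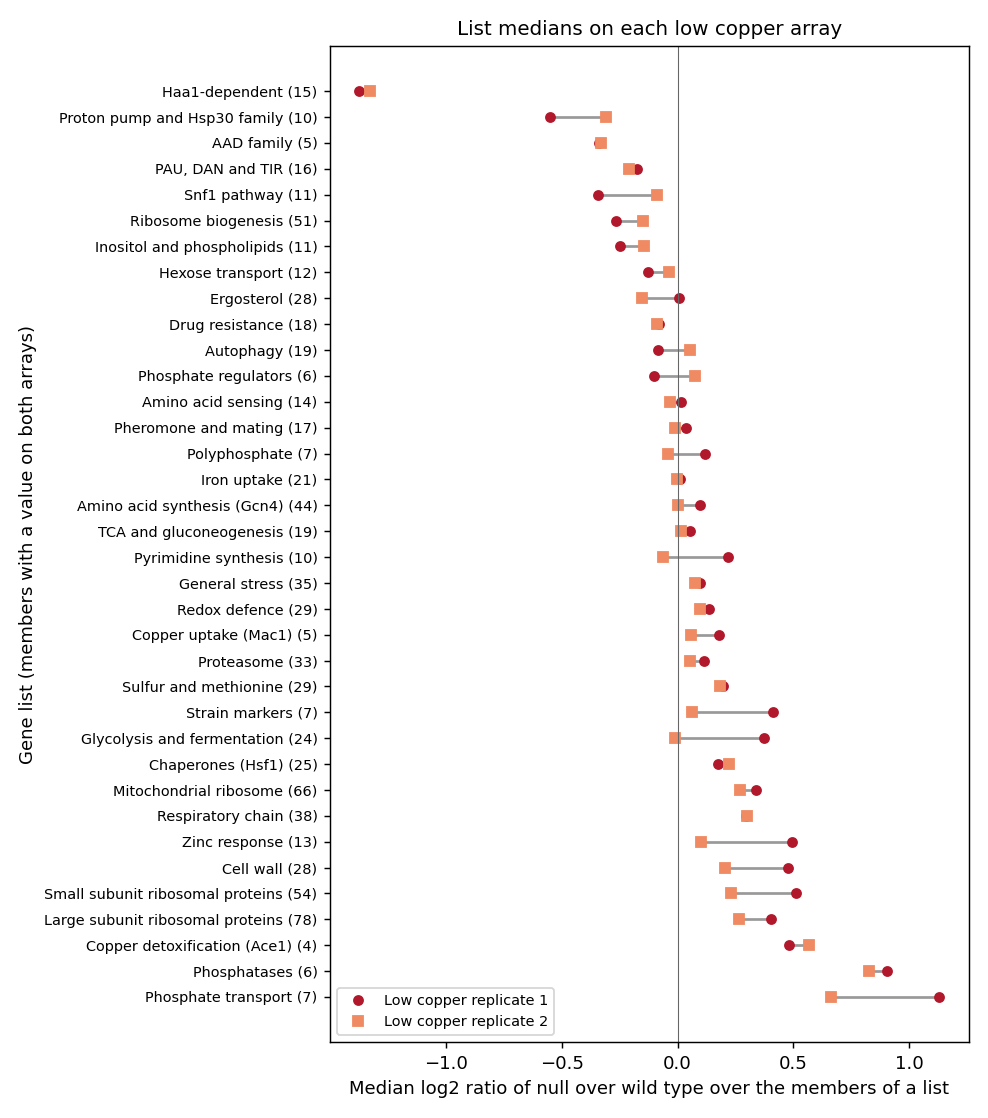
Median log2 ratio of null over wild type (horizontal axis) for each gene list with at least 4 measured members (vertical axis), with a point for low copper replicate 1 and one for low copper replicate 2. The Haa1-dependent list lies farthest left, at -1.37 and -1.33, and the phosphate transport and phosphatase lists lie farthest right.

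Stress genes held calls in both directions. Of 35 general stress genes, HSP30, NQM1 and GRE1 fell and RGI1 rose. Of the 35, 17 were above 0 and 10 below 0 on both arrays, and the medians were 0.10 and 0.08. Over all measured genes, 35.8% were above 0 and 36.5% below 0 on both arrays. Of all genes tested, 0.428% passed as lower and 0.234% as higher. HSP12, a membrane-protecting stress protein gene, had -0.94 and -0.68 in low copper, against -0.67 and -0.68 in high copper (adjusted p = 0.0625, limma). Of 25 chaperone genes, 15 were above 0 on both arrays, 3 were below and none passed. BTN2, a gene of protein aggregate sorting, had the highest mean among them, with 0.81 and 0.83 in low copper, against 3.22 and 3.34 in high copper (adjusted p = 0.0504 in low copper and 0.0564 for the difference, limma). With the displaced run moved back both passed (0.0381 and 0.0443), and every low copper value of BTN2 lay below every high copper value.

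Other lists held few or no calls. Over all measured genes, 35.8% were above 0 and 36.5% below 0 on both arrays. Glycolysis and fermentation genes showed a median of 0.37 on replicate 1 and -0.01 on replicate 2, so the medians did not share a sign. Of the 24 genes, 12 were above 0 and 1 below 0 on both arrays. All 5 measured aryl alcohol dehydrogenase genes of the AAD family, which are similar in sequence, were below 0 on both arrays, with medians of -0.34 and -0.33 and none past the threshold. Of 29 sulfur assimilation genes, 16 were above 0 and 8 below 0 on both arrays, and MET17 alone passed. Genes of the Gcn4 amino acid response had 21 of 44 above 0 and 13 below 0 on both arrays, and none passed. Lists of ergosterol synthesis, drug resistance, redox defence, proteasome, mating and autophagy genes held no gene past the threshold. Of all genes tested, 0.428% passed as lower and 0.234% as higher, so lists this short may hold none. On both arrays, 21 of 33 proteasome genes were above 0 and 8 below. The counts above and below were 15 and 4 of 29 for redox defence and 5 and 10 of 28 for ergosterol. They were 3 and 7 of 18 for drug resistance, 5 and 4 of 17 for mating and 7 and 7 of 19 for autophagy. Over all 37 lists, 27 had medians of one sign on both arrays.

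Agreement between the low copper arrays was moderate over all genes. Across the 5154 genes the Pearson correlation was 0.45 and the Spearman correlation was 0.59. Both were computed across genes, and genes are not independent replicates, and both arrays carry the same dye orientation. In all, 3729 genes (72.4%) had one sign on both arrays, 1883 below 0 and 1846 above 0. The median size of the difference between arrays was 0.194.

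**Figure D4:**
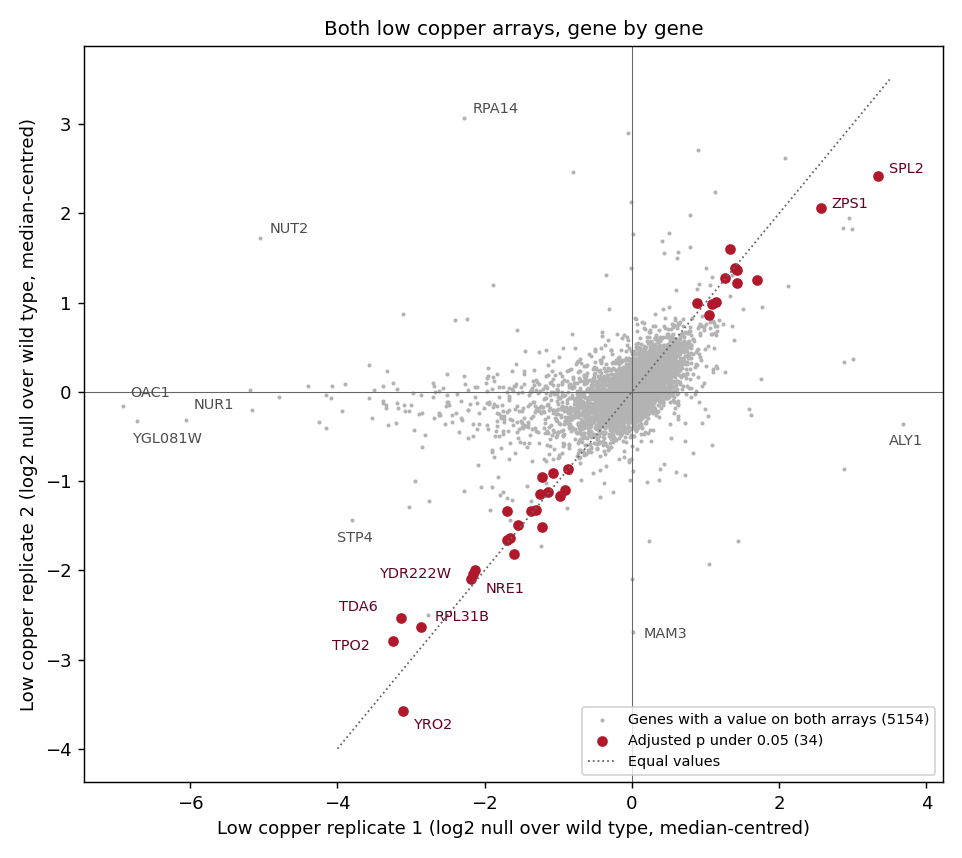
Log2 ratio of null over wild type of each of the 5154 genes on low copper replicate 1 (horizontal axis) against low copper replicate 2 (vertical axis). Genes past the threshold lie along the diagonal, as the test favours genes whose arrays lie close. A group of genes far below 0 on replicate 1 lies near 0 on replicate 2.

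Large values were shared unevenly. On replicate 1, 400 genes were at least 2-fold from the median, 339 lower and 61 higher, against 87 on replicate 2, 47 lower and 40 higher. The 54 genes that met this on both arrays with one sign were 13.5% of the replicate 1 genes and 62.1% of the replicate 2 genes. Genes between 2-fold and 4-fold on replicate 2 had one sign on both arrays in 88.4% of 69 cases. Genes in that range on replicate 1 did in 76.2% of 286 cases. Genes at least 4-fold from the median did in 66.7% of 18 cases on replicate 2 and 75.4% of 114 on replicate 1. The excess on replicate 1 was on the low side, where 40 genes stood below -3, and 33 of these lay within 0.5 of 0 on replicate 2. No gene stood below -3 on replicate 2 and within 0.5 of 0 on replicate 1. Few could have, since 18 genes were at least 4-fold from the median on replicate 2 in either direction. HAA1, FAA2 and YNR048W, at -7.35, -4.79 and -3.79 on replicate 2, had no value on replicate 1 and were not counted.

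**Figure D5:**
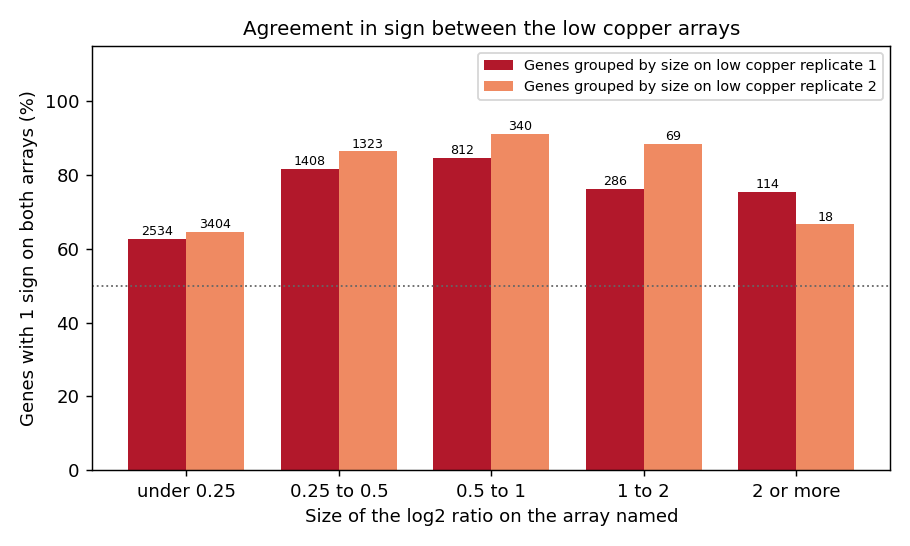
Percent of genes with one sign on both low copper arrays (vertical axis) by the size of the log2 ratio on 1 of the arrays (horizontal axis), for bins taken on each replicate, with the number of genes above each bar and a dotted line at an even split. The share is 62.7% and 64.7% in the smallest bins and reaches 84.6% on replicate 1 and 91.2% on replicate 2 for sizes between 0.5 and 1. For sizes of 2 or more it is 75.4% on replicate 1 and 66.7% on replicate 2.

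Single genes show what this means for a mean of the pair. OAC1, a mitochondrial oxaloacetate carrier gene, had -6.91 on replicate 1 and -0.15 on replicate 2. YGL081W had -6.72 and -0.33, and NUR1 had -6.06 and -0.32, all far lower on replicate 1. NUT2, a Mediator subunit gene, had -5.05 and 1.72, and RPA14, an RNA polymerase I subunit gene, had -2.29 and 3.07. ALY1, RPD3 and MRS3 differed the other way, with 3.69 and -0.36, 2.88 and -0.87, and 1.05 and -1.93. RPD3 was not tested, and none of the other genes here passed.

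Other genes were at least 2-fold from the median on both arrays without passing. STP4, a zinc finger protein gene, had -3.81 and -1.44 in low copper, against -2.88 and -3.11 in high copper (adjusted p = 0.0927, limma). SWC7, a chromatin remodelling subunit gene, had -3.02 and -1.29 in low copper, against -0.20 and 0.27 in high copper. LYS2, a lysine synthesis gene that also serves as a strain marker, had -2.76 and -1.23. EFM6, a methyltransferase gene, had -1.92 and -1.32 in low copper, against -1.83 and -1.92 in high copper (adjusted p = 0.0585), and passed with the displaced run moved back (adjusted p = 0.044). TIM22, a mitochondrial import gene, had 1.13 and 2.24 in low copper, against 0.42 and -0.01 in high copper.

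Spots of one gene agreed better than the arrays did. For 823 genes with more than 1 spot, the median SD between spots of an array was 0.0955 on replicate 1 and 0.0750 on replicate 2, and the median SD between the arrays for the same genes was 0.140. Spots of a gene lay more than 1 log2 unit apart for 94 genes (11.4%) on replicate 1 and 39 genes (4.74%) on replicate 2. Over the 16 printed sectors, the Spearman correlation between the low copper arrays at the same spot ran from 0.444 to 0.649, and it was at most 0.157 at any other offset tried, so no displaced run was found on these arrays.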

How the data were processed

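Total RNA of lpz8 null cells (Cy5) and of wild-type cells (Cy3) was compared on 4 arrays of 8832 spots, 2 with null cells in low copper and 2 in high copper, per the labels. The deposited values are 1 log ratio per spot and array, read here as log2 of Cy5 over Cy3. The log base, the background correction, the normalization by the authors and the spot filter behind missing values are not given in the sources used here, so the base is an assumption. The labels give the dye of each RNA and not which channel is the numerator, so the direction is an assumption too. HAA1 lay far below 0 on each array that measured it. The brightness of the channels and any flags on spots were not used, which leaves the signal above background unknown, and the number of arrays limits the precision. The deposited medians were -0.15 and -0.067 on low copper replicates 1 and 2.

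The median of the 6912 spots with values on every array was subtracted from each array. Spots were named from the platform annotation: 6956 had 1 gene symbol, 0 had several and 1876 had none. All 6956 matched RefSeq symbols of assembly R64, used for names alone. Spots of a gene were averaged over the same spots on every array compared. A model with a mean for each copper condition was fitted in limma 3.58.1 (R 4.3.3, lmFit and eBayes), with 2 residual degrees of freedom and 2.22 prior ones. Benjamini-Hochberg adjustment ran over 5137 genes. The steps were tested on simulated data.

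The members and gene lists were chosen with earlier results of these data known, and lists are described by counts and medians without a test. Genes named are HAA1, the copper-factor genes and the Haa1, Ace1 and Mac1 lists; up to 20 lowest and 15 highest means past the threshold; the 15 lowest and 15 highest by the smaller of the 2 sizes; up to 4 members per other list and any past the threshold; the 5 largest differences between the low copper arrays each way; and the 3 lowest and highest genes measured on replicate 2 alone. Other genes named, among them members of these lists, RPL31A and the arginine genes, were chosen after their values were seen. Alternatives covered centring, scaling, the arrays and genes fitted, single replicates, a replicate block, the displaced run, spots and the fold.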

Additional observations from a re-analysis of the deposited data

Results flagged for a closer look

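Of the named genes that were tested, 14 had both low copper values on one side of 0 and both high copper values on the other. The test of the difference itself, limma's contrast of high minus low copper, passed for none of them in the data as deposited, and the values below are that contrast on the log2 scale. RPL31B came nearest, at 2.86 (adjusted p = 0.0564). ARG3 had -2.64, ARN1 1.83, IZH1 -1.31, AGA1 -1.18, YEL075C -1.03 and CPA1 -0.88 (adjusted p = 0.224 each). CRS5 had 0.59, GTT1 -0.47 and LEU2 -0.68 (adjusted p = 0.256 each). CTR1 had -0.50 and PDC1 -0.87 (adjusted p = 0.257 each). SNQ2 had 0.49 (adjusted p = 0.261) and SMF3 0.36 (adjusted p = 0.29).

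ARG3, an ornithine carbamoyltransferase gene, had 2.87 and 1.84 in low copper, against -0.19 and -0.38 in high copper. IZH1, a zinc-responsive membrane protein gene, had 0.92 and 0.65 in low copper and a mean of -0.52 in high copper.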

How the results depend on the processing

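The count of genes past the threshold in low copper, 34 (22 lower and 12 higher), depended on the fit. It was 19 (17 and 2) without centring, 61 (30 and 31) with arrays scaled to equal spread, 33 (21 and 12) on genes measured on both low copper arrays, 63 (33 and 30) with the displaced run moved back, and 7 spots (7 and 0) of 6 genes with spots tested separately. On the low copper pair alone limma called 0 (0 and 0), with 942 genes at an unadjusted p under 0.05. With a replicate block for the arrays marked as repeats it called 0 (0 and 0), with 1520 genes at an unadjusted p under 0.05, and high minus low copper also gave 0. The labels give no other pairing of arrays. Leaving out 1 array gave 0 to 1438 genes (0 to 875 lower, 0 to 563 higher), with 101 when low copper replicate 1 was left out, 1438 when replicate 2 was and 0 without either high copper array. The lone array is then assumed to vary like the other condition. For high minus low copper the count was 0 to 743 in these fits, with 22 when low copper replicate 1 was left out and 743 when replicate 2 was, and 2 with the run moved back. Scaling kept 20 of the 34 genes.

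The 54 genes at least 2-fold on both arrays (34 lower, 20 higher) became 173 (88 and 85) at 1.5-fold and 17 (11 and 6) at 3-fold. They were 55 (40 and 15) without centring and 53 (36 and 17) after scaling. The share of genes of one sign was 74.2% without centring, against 72.4%. With low copper replicate 2 left out and then with replicate 1 left out, NUT2 stood at -5.05 and 1.72, RPA14 at -2.29 and 3.07, and CYM1 at 1.44 and -1.67. List medians changed sign for 7 of 37 lists without centring, 2 after scaling, 8 with low copper replicate 1 left out, glycolysis among them, and 2 with replicate 2 left out. The cause of these changes was not tested.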

Other observations

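Arginine genes stood on both sides of 0 in low copper; the genes were grouped after their values were seen, so no test is given for the group. CAR1, the arginase gene, fell, with -1.25 and -1.15 in low copper, against -0.48 and -0.78 in high copper (adjusted p = 0.0417, limma). CAR2, the ornithine transaminase gene of the same breakdown pathway, fell, with -0.87 and -0.86 in low copper, against -0.12 and -0.09 in high copper (adjusted p = 0.0406). On the synthesis side, ARG3 had 2.87 and 1.84 in low copper (adjusted p = 0.0618), with 0.0491 when the displaced run was moved back and 0.0246 with scaled arrays. ARG8, an acetylornithine aminotransferase gene, had 1.13 and 0.74, and CPA1, a carbamoyl phosphate synthetase subunit gene, had 0.92 and 0.76, and both passed with scaled arrays (adjusted p = 0.037 for ARG8 and 0.0419 for CPA1). With the run moved back CPA1 passed too (adjusted p = 0.043). ARG1 had 0.48 and 0.33, while ARG2 had -0.48 and -0.53 and ARG4 had -0.09 and -0.43. Of 7 synthesis genes, 4 were above 0 and 2 below 0 on both arrays, and all 4 breakdown genes were below 0 on both.

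Genes measured on low copper replicate 2 alone had no second value. Besides HAA1, the lowest of them were FAA2, a fatty acyl-CoA synthetase gene, at -4.79 and YNR048W at -3.79, and the highest were ECM23 at 2.34, GEA2 at 1.41 and ACS1 at 0.89. Of the 1876 spots with no gene name, 998 had values on both low copper arrays. Of these, 11 were at least 2-fold lower and 20 at least 2-fold higher on both, beside 0.66% and 0.388% of named genes. The former are single spots, whereas gene values average the spots of a gene. The Spearman correlation between the arrays was 0.31 over these spots and 0.59 over genes. The 68 genes of chromosome I had a median of -0.28 on low copper replicate 1, where the other chromosomes ran from -0.079 to 0.047, and of 0.0225 on replicate 2.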
